A study of Mus musculus with 2 samples.

Results

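Solute carriers are membrane proteins that move ions, sugars, amino acids, metals and other small molecules across membranes by facilitated diffusion, exchange or cotransport. The listed genes of this superfamily were examined in testis of adult wild-type mice by RNA immunoprecipitation sequencing (RIP-seq) of FMRP. FMRP is an RNA-binding protein, and RIP-seq sets the RNA that precipitates with it against the RNA of the whole lysate. The data comprised 1 input library, an untreated aliquot of testicular lysate, and 1 FMRP RIP library, precipitated from testicular lysate with an anti-FMRP antibody. The deposited table holds 4788 rows, each a protein-coding gene that the authors marked as higher in the FMRP RIP. Members were the genes whose symbol starts with Slc and a digit, or with Slco. The pattern matched 43 rows for 42 genes, because *Slc30a4*, a zinc transporter gene, was listed on a chromosome and on a patch scaffold with the same values and was counted once. With 1 library per group there was no replicate, and no test between the libraries could be made. A library precipitated with a control antibody was not used here. The direction of every member was fixed by the selection of the table, so only the size of its change is described.

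In the testis, solute carriers are known to supply germ cells with energy substrates, and in sperm they are known to set the pH and the chloride and bicarbonate levels on which motility and capacitation depend. SLC2 proteins carry hexoses, SLC16 proteins carry lactate and pyruvate, SLC9 proteins exchange sodium for protons, and SLC26 proteins exchange anions. SLC30 proteins move zinc out of the cytosol and SLC39 proteins move it in. SLC25 proteins form the carriers of mitochondria, and SLC35 proteins bring nucleotide sugars into the Golgi apparatus and the endoplasmic reticulum.

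Levels are given in CPM, the reads of a gene scaled to the reads of its library. They are not divided by transcript length and therefore order genes by reads, not by molecules. Change is given as the ratio of the FMRP RIP CPM to the input CPM with an exact 95% Clopper-Pearson interval, or as a log2 ratio with 1 CPM added to either level as a pseudocount, which understates the change of low genes. The intervals cover counting error only, and reads are not independent molecules. The library totals recovered from the CPM values were 30849871 input reads and 36506932 FMRP RIP reads, so that 1 read was worth 0.0324 CPM and 0.0274 CPM. Of the members, 41 lay above 3 input reads (0.0972 CPM), and 9 had at least 1000 input reads. In whole testis, fewer cells of a type and less RNA per cell cannot be told apart. Of the marker genes of testis cells, 3 of 10 for spermatocytes, 2 of 10 for spermatids and 1 of 8 for spermatogonia were listed. None were listed of 8 markers for Sertoli cells, 7 for Leydig cells, 6 for macrophages and blood and 6 for endothelial and peritubular cells. Of all protein-coding reference genes, 21.2% were listed, and the difference between cell types was not tested. Among the listed markers, the spermatid marker *Odf2*, of the sperm outer dense fibres, had an input level of 924.4 CPM and an FMRP RIP level of 6271 CPM.

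The solute carrier genes were listed in small numbers and with moderate ratios. Of 389 protein-coding members in the reference annotation, 42 were listed (10.8%), whereas 21.2% of all 21896 protein-coding reference genes were. The highest ratios that rested on many reads belonged to *Slc39a10*, a zinc importer, *Slc6a21*, an orphan member of the neurotransmitter transporter subfamily, *Slc26a8*, an anion transporter of sperm, and *Slc9c1*, the sperm sodium-proton exchanger, at 4.35-fold to 6.93-fold. The fructose transporter gene *Slc2a5* and the lactate and pyruvate transporter gene *Slc16a7* had the most reads of all members, with ratios of 1.77 and 2.25. A log2 ratio above 1 was reached by 23 of the 42 members (54.8%), against 70.1% of all listed rows. A fold of 1.5 or more with the pseudocount was reached by 40 members, against 97.3% of the listed rows. The 2 under it were *Slc22a22* and *Slc6a8*. The authors' selection already required a fold of 1.5, and without the pseudocount all 42 members and all 4788 rows reached it. The median log2 ratio of the members was 1.10, with quartiles of 0.73 and 1.51, and that of all listed rows was 1.35, with quartiles of 0.92 and 2.0. No test of these differences was made. All 42 lower limits of the ratios lay above 1, but the table holds only genes called higher, so this is no separate result.

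**Figure D1:**
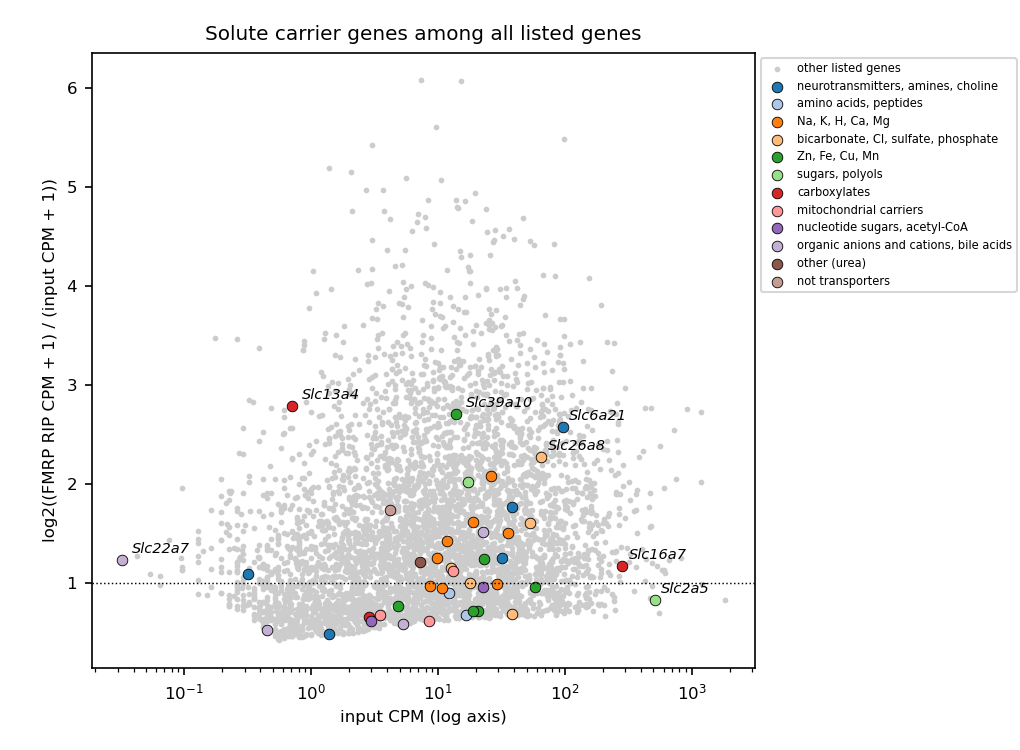
Each point is a listed gene, with its input level in CPM on a log axis and its log2 ratio of FMRP RIP to input with a pseudocount of 1 CPM; coloured points are the 42 solute carrier genes by substrate class, grey points are the other listed genes, and the 13 genes listed at 0 in the input are left out. The members lie between 0.49 and 2.79, and the dotted line marks a log2 ratio of 1.

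Summed over the members, the input level was 1586 CPM and the FMRP RIP level 4092 CPM, a ratio of 2.58. All listed rows together had a ratio of 3.89, from 14.2% to 55.2% of the reads. *Slc2a5* and *Slc16a7* held 50.3% of the members' input reads and 37.9% of their FMRP RIP reads. Without them the ratio of the sums was 3.22. Members were also set beside the listed rows of the same broad range of input level, without matching inside the range. From 10 to under 100 CPM, 16 of the 25 members had a log2 ratio above 1, where 77.6% of all listed rows of that range did. Their median log2 ratio was 1.24, and that of the 2015 listed rows was 1.54. For the 11 members from 1 to under 10 CPM the median was 0.67, beside 1.29 for 1923 rows. The 4 members under 1 CPM went the other way, with a median of 1.16 beside 1.0 for 548 rows. *Slc2a5* and *Slc16a7*, the 2 members at 100 CPM or more, had a median of 1.0 beside 1.56 for 302 rows.

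All members but *Slc4a1ap*, which is not a transporter gene, fell into 11 substrate classes, set by subfamily number with exceptions for single genes, and 21 of the 52 subfamilies of the reference had a member listed. Transporters of sodium, potassium, proton, calcium and magnesium ions had 8 of 33 reference genes listed (24.2%). The metal transporters for zinc, iron, copper and manganese had 6 of 29 (20.7%), and the transporters of bicarbonate, chloride, sulfate and phosphate 5 of 27 (18.5%). These 3 shares lay near the 21.2% of all protein-coding reference genes, and no class share was tested. The share was 6.38% for the 47 mitochondrial carriers and 4.08% for the 49 transporters of amino acids and peptides. None of the 23 genes for nucleosides, vitamins and heme and none of the 6 for fatty acids were listed. The table does not tell whether an unlisted gene was lower, unchanged or too low to be called. The gene span, from start to end, had a median of 41.0 kb for the listed members and 28.7 kb for the 347 unlisted ones in the reference, and its part in the listing was not tested.

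**Figure D2:**
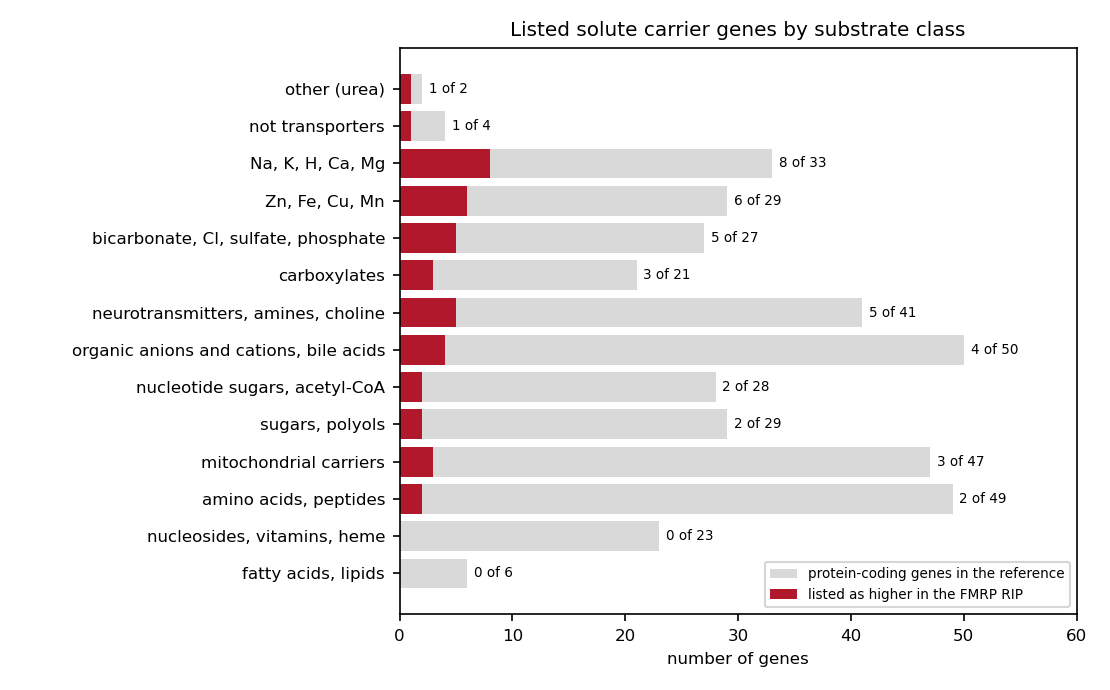
Bars count the solute carrier genes of each substrate class, grey for all protein-coding genes of the class in the reference annotation and red for those listed as higher in the FMRP RIP. The longest red bar is that of the sodium, potassium, proton, calcium and magnesium transporters with 8 of 33 genes. Both classes without a red bar are those for nucleosides, vitamins and heme and for fatty acids. Of all protein-coding reference genes, 21.2% were listed.

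Among classes of 3 or more genes, the median log2 ratio was 1.34 for the sodium, potassium, proton, calcium and magnesium transporters, beside 1.35 for all listed rows. It was 1.26 for the neurotransmitter transporter class, 1.17 for the carboxylate transporters and 1.15 for the bicarbonate, chloride, sulfate and phosphate transporters. Lower medians were found for the organic anion and cation transporters (0.91), the zinc and other metal transporters (0.87) and the mitochondrial carriers (0.67). Ranges within the classes were wide and overlapped, with the metal transporters running from 0.72 to 2.71 and the anion transporters from 0.69 to 2.28. The order of the classes turned with the processing: the neurotransmitter class had the highest median under pseudocounts of 5, 0.1 and 0 CPM and with a minimum of 1 CPM. The 5 listed genes of that class are all SLC6 genes, some without an established substrate and others for taurine, imino acids or creatine. These medians rest on 3 to 8 genes each, and no class was tested against another.

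**Figure D3:**
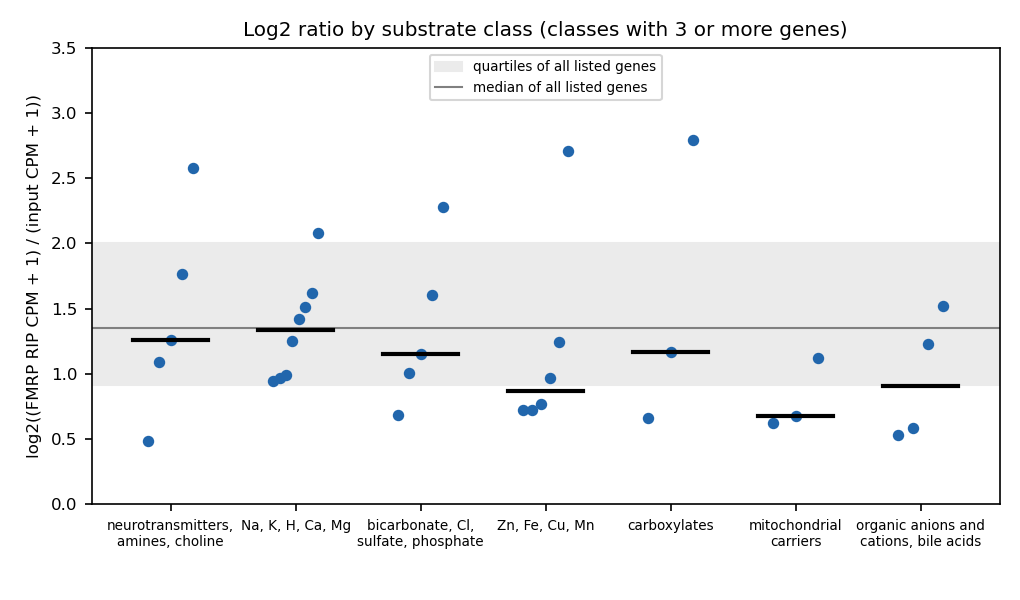
Points are the log2 ratios (FMRP RIP over input, pseudocount of 1 CPM) of the members in each substrate class with at least 3 genes, and black bars are class medians; the grey line and band are the median and the quartiles of all listed rows. The points of all 7 classes shown lie on both sides of 1, and the medians run from 0.67 to 1.34.

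Among the sodium-proton exchangers, the sperm-specific member had the highest ratio. *Slc9c1* (ENSMUSG00000033210, GRCm38 chromosome 16 from 45535309 to 45607001), a sodium-proton exchanger of the sperm flagellum needed for motility, had an input level of 26.1 CPM and an FMRP RIP level of 113.4 CPM, a ratio of 4.35 (4.03 to 4.70). *Slc9a5*, a related exchanger, had 9.79 CPM and 24.7 CPM, a ratio of 2.52 (2.21 to 2.88). Its locus overlaps the protein-coding gene *Plekhg4*, which was not listed, and without a stated use of strand their reads cannot be told apart. *Slc9a8*, an exchanger of endomembranes needed for acrosome formation, had 29.5 CPM and 59.6 CPM, and its ratio of 2.02 (1.87 to 2.19) was the lowest of the subfamily. The interval of *Slc9c1* lay above those of *Slc9a5* and *Slc9a8*. *Slc8a2*, a sodium-calcium exchanger of the plasma membrane, had 19.1 CPM and 60.6 CPM, a ratio of 3.18 (2.90 to 3.49).

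Cation-chloride cotransporters had lower ratios than *Slc9c1*. *Slc12a5*, a potassium-chloride cotransporter, had 8.72 CPM and 18 CPM, a ratio of 2.07 (1.79 to 2.39). *Slc12a2*, the sodium-potassium-chloride cotransporter whose loss impairs spermatogenesis in mice, had 10.8 CPM and 21.7 CPM, a ratio of 2.01 (1.77 to 2.30). The intervals of *Slc12a5* and *Slc12a2* overlapped. The WNK kinases and the kinase encoded by *Stk39* are known regulators of these cotransporters. *Wnk1*, *Stk39* and *Wnk3* were listed with higher ratios, and the share of such kinase genes that were listed is not given here. *Wnk1* had an input level of 57.0 CPM and an FMRP RIP level of 1236 CPM, a ratio of 21.7. *Stk39* had 61.8 CPM and 346.3 CPM, a ratio of 5.61, and *Wnk3* had 4.67 CPM and 34.0 CPM, a ratio of 7.28. They belong to a list of 22 partner and regulator genes of solute carriers, which was fixed with earlier results of these data known. Of that list, 8 genes were listed here and 7 of these had a log2 ratio above 1, and no test was made. Over all genes, 21.2% of the protein-coding reference genes were listed, and 70.1% of the listed rows had a log2 ratio above 1. The others of that list were *Pdzk1*, a PDZ scaffold of transporters (ratio 9.86), *Ahcyl2* (3.56) and *Ahcyl1* (2.17), which encode IRBIT proteins, *Adcy10*, the bicarbonate-sensing adenylyl cyclase of sperm (2.24), and the ubiquitin ligase gene *Nedd4l* (2.09).

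With the sulfate cotransporter gene *Slc13a4* left among the carboxylate transporters by its subfamily number, the anion transporters were led by a gene of sperm. *Slc26a8* (ENSMUSG00000036196, chromosome 17 from 28637783 to 28690233) encodes a chloride and sulfate transporter of the sperm annulus that is needed for motility. It had an input level of 65.5 CPM and an FMRP RIP level of 321.3 CPM, a ratio of 4.90 (4.68 to 5.14). Of the 11 Slc26 genes in the reference, it alone was listed. *Slc34a2*, a sodium-phosphate cotransporter, had 52.7 CPM and 162.6 CPM, a ratio of 3.08 (2.92 to 3.26), and *Slc20a1*, a phosphate transporter of another subfamily, had 12.8 CPM and 29.6 CPM, a ratio of 2.31 (2.06 to 2.60). The bicarbonate cotransporters were lower still. *Slc4a8* had 18.1 CPM and 37.2 CPM, a ratio of 2.06 (1.87 to 2.28), and *Slc4a7* had 38.7 CPM and 62.8 CPM, a ratio of 1.62 (1.51 to 1.74). *Slc4a1ap* matches the symbol pattern but encodes an adaptor protein that is not a transporter, and it had 4.18 CPM and 16.3 CPM, a ratio of 3.90 (3.22 to 4.75).

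Of the zinc transporters, 1 importer stood above the others. *Slc39a10* (ENSMUSG00000025986, chromosome 1 from 46807544 to 46892852), which encodes the zinc importer ZIP10, had an input level of 13.9 CPM and an FMRP RIP level of 96.1 CPM, a ratio of 6.93 (6.26 to 7.68). *Slc39a6*, which encodes its partner ZIP6, had more reads, 58.8 CPM and 115.6 CPM, and a ratio of 1.97 (1.86 to 2.08). *Slc39a8*, a zinc and manganese importer, had 18.9 CPM and 31.7 CPM, a ratio of 1.68 (1.52 to 1.86). The interval of *Slc39a10* did not reach that of any other metal transporter. The zinc exporters spread less. *Slc30a4* had 22.9 CPM and 55.7 CPM, a ratio of 2.43 (2.23 to 2.65). Whether its reads were divided between its chromosome and patch scaffold entries is not known, so its level could be understated. *Slc30a7*, of the Golgi apparatus, had 4.83 CPM and 8.93 CPM, a ratio of 1.85 (1.52 to 2.26), and *Slc30a9*, of mitochondria, had 20.8 CPM and 34.9 CPM, a ratio of 1.68 (1.53 to 1.85). The intervals of *Slc30a7* and *Slc30a9* overlapped.

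In the SLC6 subfamily, neighbouring genes on chromosome 7 had different ratios. *Slc6a21* (ENSMUSG00000070568, from 45277513 to 45288998) and *Slc6a16* (ENSMUSG00000094152, from 45241085 to 45273367) lie on the same strand with 4145 bases between them, and both encode members of the subfamily without an established substrate. *Slc6a21* had an input level of 97 CPM and an FMRP RIP level of 584.5 CPM, a ratio of 6.03 (5.80 to 6.27), from 2991 and 21339 reads. *Slc6a16* had 32.0 CPM and 77.8 CPM, a ratio of 2.43 (2.26 to 2.62), from 986 and 2841 reads. The next closest members, *Slc35b4* and *Slc13a4*, lay 1090845 bases apart. *Slc6a6*, the taurine transporter gene, lay between this pair in ratio, at 3.47 (3.26 to 3.70), with 38.1 CPM and 132.1 CPM. The remaining SLC6 genes had few reads. *Slc6a20a*, which encodes an imino acid transporter, had 0.319 CPM and 1.81 CPM, a ratio of 5.66 (2.85 to 12.2) that rests on about 10 input reads, and some of its reads were counted as fractions. It has a close copy, *Slc6a20b*, with which reads could be shared. *Slc6a8*, the creatine transporter gene, had 1.39 CPM and 2.36 CPM, a ratio of 1.69 (1.16 to 2.50).

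The amino acid transporters outside SLC6 were few and had ratios under 2. *Slc1a2*, a glutamate transporter gene, had 12.4 CPM and 23.9 CPM, a ratio of 1.93 (1.71 to 2.18). *Slc7a1*, the transporter of arginine and lysine, had 16.7 CPM and 27.3 CPM, a ratio of 1.64 (1.47 to 1.82). None of the 11 Slc38 genes, for neutral amino acids, were listed.

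The transporters of fructose and of lactate and pyruvate held the most reads among the members, with ratios close to the members' middle or under it. *Slc2a5* (ENSMUSG00000028976, chromosome 4 from 150119283 to 150144169), the fructose transporter gene, had an input level of 512.0 CPM and an FMRP RIP level of 907.8 CPM, a ratio of 1.77 (1.74 to 1.81). *Slc16a7* (ENSMUSG00000020102, chromosome 10 from 125219270 to 125389465) encodes the lactate and pyruvate transporter MCT2 of the sperm flagellum. It had 284.9 CPM and 641.9 CPM, a ratio of 2.25 (2.20 to 2.31). The intervals of both genes were narrow, at 15794 and 8788 input reads, and did not overlap. *Slc45a4*, placed with the sugar transporters by its subfamily, had 17.2 CPM and 73.2 CPM, a ratio of 4.25 (3.87 to 4.67). *Slc16a6*, another member of the monocarboxylate transporter subfamily, had 2.85 CPM and 5.09 CPM, a ratio of 1.79 (1.38 to 2.33). Its locus overlaps *Arsg*, which was also listed, and without a stated use of strand the reads of overlapping genes cannot be told apart.

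*Slc13a4* (ENSMUSG00000029843, chromosome 6 from 35267957 to 35308131), a sodium-sulfate cotransporter gene that its subfamily number placed with the carboxylate transporters, had the highest log2 ratio of the members, 2.79. It had an input level of 0.713 CPM and an FMRP RIP level of 10.9 CPM, a ratio of 15.2 (9.93 to 24.6) from 22 and 397 reads. Placed with the anion transporters instead, it raised their median log2 ratio from 1.15 to 1.38 and lowered that of the carboxylate transporters from 1.17 to 0.92. *Slc22a7*, an organic anion transporter gene known mainly from liver and kidney, had the highest ratio, 43.9, but rested on 1 input read and 52 FMRP RIP reads, and its interval ran from 7.55 to 1769. With the pseudocount its log2 ratio was 1.23, and it ranked 17 among the members.

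The other organic ion transporters had ratios from 1.60 to 2.94. With the pseudocount, the log2 ratio of *Slco3a1* (1.52) was above that of *Slc22a7* (1.23). *Slco3a1*, an organic anion transporter gene, had 22.9 CPM and 67.3 CPM, a ratio of 2.94 (2.70 to 3.20), and was the only one of the 14 Slco genes listed. *Slc22a22*, which encodes a prostaglandin transporter, had 0.454 CPM and 1.10 CPM, a ratio of 2.41 (1.29 to 4.80). *Slc22a18*, an imprinted gene, had 5.28 CPM and 8.44 CPM, a ratio of 1.60 (1.32 to 1.94), the lowest of the members together with *Slc25a51*. The ratio of the urea transporter gene *Slc14a2* was 2.50 (2.15 to 2.92), from 7.26 CPM and 18.2 CPM.

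**Figure D4:**
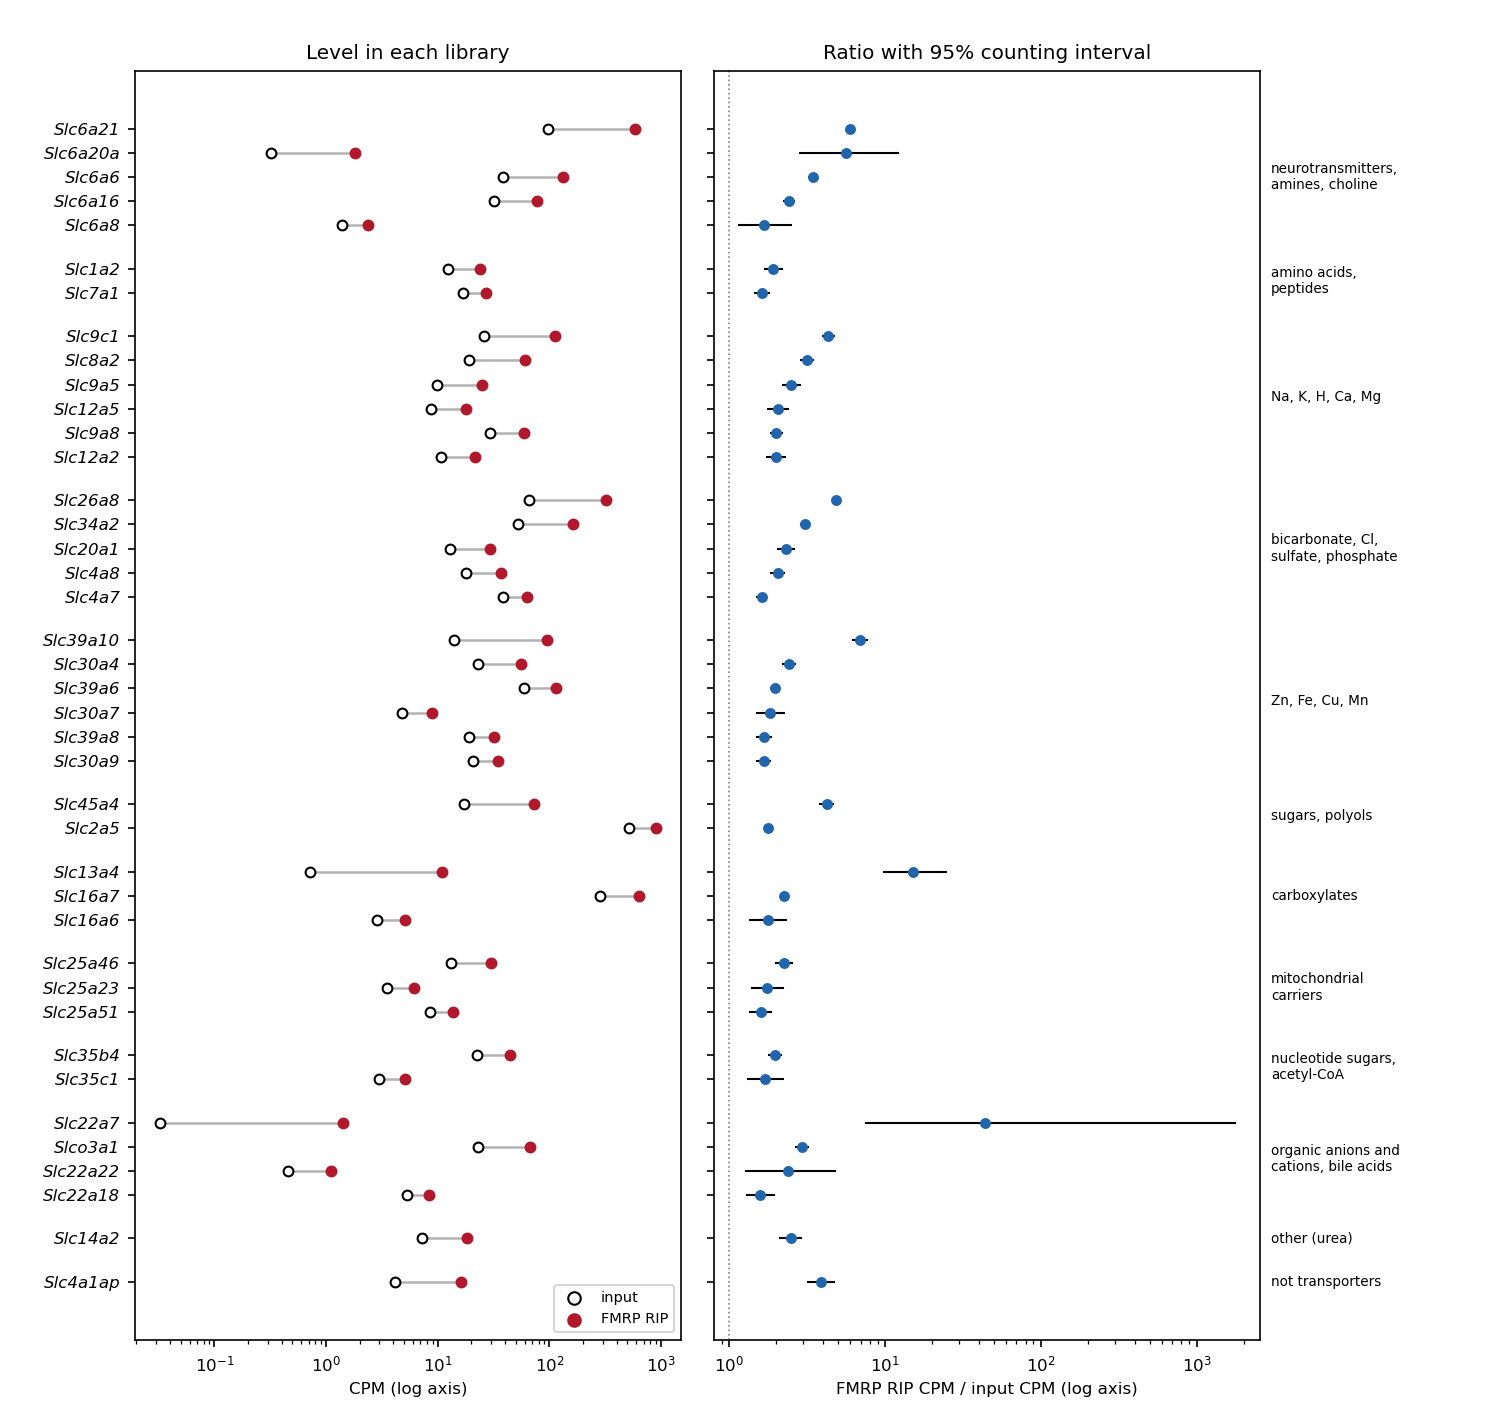
For 40 of the 42 members, grouped by substrate class, the left panel shows its CPM in the input (open circles) and the FMRP RIP (filled circles) on a log axis, and the right panel its ratio on a log axis with the 95% counting interval as a bar and a dotted line at 1. The ratios of most members lie between 1.60 and 6.93, and the widest interval is that of *Slc22a7* with 1 input read.

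The listed SLC25 and SLC35 genes had ratios from 1.60 to 2.26. Of the mitochondrial carriers, *Slc25a46*, of the outer membrane and known for a role in mitochondrial dynamics, had 13.3 CPM and 30.0 CPM, a ratio of 2.26 (2.02 to 2.54). *Slc25a23*, a carrier of ATP-magnesium and phosphate, had 3.51 CPM and 6.19 CPM, a ratio of 1.76 (1.40 to 2.25). *Slc25a51*, the carrier of NAD, had 8.51 CPM and 13.6 CPM, a ratio of 1.60 (1.38 to 1.87). The interval of *Slc25a46* lay above that of *Slc25a51* and overlapped that of *Slc25a23*. The germ cell adenine nucleotide carrier gene *Slc25a31* was not listed. Among the nucleotide sugar transporters, *Slc35b4* had 22.5 CPM and 44.8 CPM, a ratio of 1.99 (1.82 to 2.17), and *Slc35c1*, the GDP-fucose transporter, had 2.98 CPM and 5.09 CPM, a ratio of 1.71 (1.32 to 2.22). Of the 27 Slc35 genes these were the 2 listed.

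Of 22 solute carrier genes known from sperm or testis, 21 of them in the reference, 6 were listed: *Slc2a5*, *Slc9a8*, *Slc9c1*, *Slc12a2*, *Slc16a7* and *Slc26a8*. Their ratios ran from 1.77 to 4.90, and 3 of them had a log2 ratio above 1, beside 21.2% of all reference genes listed and 70.1% of listed rows above 1. The others, among them *Slc22a14*, *Slc26a3* and *Slc9b1*, were not in the table.

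Transport genes outside the symbol pattern were counted in the same way. Of 56 reference genes of solute carrier families that carry other symbols, 8 were listed (14.3%), with a median log2 ratio of 0.84, and 3 of them exceeded 1. These were *Letm2* (ratio 6.75), *Xpr1*, a phosphate exporter gene (4.39), and *Letm1*, of the mitochondrial inner membrane (3.59). Ion channels, pumps, flippases and ABC transporters had 90 of 268 reference genes listed (33.6%), 58 of them with a log2 ratio above 1 (64.4%) and a median of 1.19. The solute carriers had 10.8%, 54.8% and 1.10 for the same quantities. The difference between the families was not tested.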

How the data were processed

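The authors deposited 1 table of CPM values, reads per gene scaled to the library total, for 1 input and 1 FMRP RIP library of testis. The submitters' processing notes name STAR, GRCm38 and mm10, and the study's methods name edgeR for the selection. The counting tool and its use of strand are not given in the sources used here. All 4788 rows are marked higher, and the authors' fold changes and p-values were not used.

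CPM values were whole multiples of 0.01 read, from which the totals were recovered; 78.4% of input values above 0 and 78.8% of FMRP RIP values were whole reads (within 0.005 read). Of the members, 7 had fractional reads, among them *Slc30a4*, *Slc6a20a*, *Slc1a2*, *Slc7a1*, *Slc25a23* and *Slc25a51*, rounded for the intervals. The planned counting intervals were used, and no count test was run.

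Members were chosen, and lists and classes fixed, with earlier results of these data known; *Slc4a1ap* was set apart after its listing was seen. The naming rule took a sperm and testis list, the 5 highest and 5 lowest log2 ratios with at least 100 reads, the 5 highest input levels, the leading genes of each class and members at or under 3 input reads, 24 genes in all. A further 16 are named so that members are accounted for, chosen after their values were seen, and 2 members are counted in all summaries but not reported singly here. *Wnk1*, *Wnk3*, *Stk39* and further list genes are given from fixed lists. Reference counts came from the RefSeq annotation of GRCm38.p6, in which all 42 symbols and positions matched. Alternatives were pseudocounts of 5, 0.1 and 0 CPM, a minimum of 1 CPM, scaling to the reads of unlisted genes and other class assignments. The functions were tested on simulated data. Intervals came from scipy 1.17.1 in Python 3.11.15, with tables in pandas 2.3.3 and numpy 2.4.6 and plots in matplotlib 3.10.9.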

Additional observations from a re-analysis of the deposited data

How the results depend on the processing

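No paired analysis was possible because the input and the FMRP RIP are single libraries, and the direction of a member could not change in a table of genes called higher. The count of members with a log2 ratio above 1 was 23 with 1 CPM added, 17 at a pseudocount of 5 CPM and 27 at 0.1 CPM or without one. Of all listed rows, 70.1% exceeded 1 with 1 CPM added, 51.7% with 5 CPM, 80.0% with 0.1 CPM and 81.3% with none, so the share of members stayed lower. For members, the count at 1.5-fold or more, the limit of the authors' selection, ran from 31 to 42. Scaling to the reads of unlisted genes multiplied each FMRP RIP value by 1.92, put all 42 members above 1 and raised their median log2 ratio from 1.10 to 1.92, beside 2.24 for all listed rows, of which 4786 of 4788 exceeded 1. It gave medians of 2.25 for sodium, potassium, proton, calcium and magnesium, 2.19 for neurotransmitters, 2.11 for carboxylates, 2.07 for bicarbonate and other anions, 1.77 for metals, 1.65 for organic ions and 1.51 for mitochondrial carriers. A pseudocount of 5 CPM gave 1.10 for the sodium to magnesium class and 0.96 for the anions, 1.16 for the neurotransmitters, 0.46 for the mitochondrial carriers and 0.37 for the organic ions, whose median was 0.91 with 1 CPM. No pseudocount gave 1.41 for the organic ions, 1.80 for the neurotransmitters and 1.42 for the sodium to magnesium class, and 0.1 CPM gave 1.79 and 1.41 for the last 2. With genes under 1 CPM in either library left out, which leaves out *Slc13a4*, the carboxylate median was 0.92 and the neurotransmitter median 1.51. Placing each gene by subfamily number alone, which adds *Slc4a1ap* to the anions, gave 1.38 for that class, the highest of the classes. With *Slc13a4* among the anions, a choice made after seeing the data, the anions had 1.38 and the carboxylates 0.92. The ratio of summed reads was 3.22 without *Slc2a5* and *Slc16a7*, also chosen after seeing the data. Other class medians, for classes of 3 or more genes, stayed between the medians of their genes' lower and upper counting limits. Of 118 values of single genes under the other settings, 34 moved by more than the gene's counting interval, 23 of these under the scaling. Depth limits the ratios of the 4 members under 1 CPM in the input.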
